A study of Mus musculus with 6 samples.

Results

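The genes described here are 10 factors that hold lymphocytes in a resting state, drawn from 4 families: the Krüppel-like factors Klf2, Klf3, Klf4, Klf6 and Klf13, the forkhead factors Foxo1, Foxo3 and Foxp1, and the antiproliferative proteins Btg1 and Btg2. They were looked up by Ensembl gene ID in the deposited tables, with the position of each event checked against the gene. The transcript start events of a gene were added up, in FPKM (fragments per kilobase, scaled to library size), to give its level. Of the 10 genes, 7 were found under their own ID, Foxp1 was found only under the ID of a neighbour, and Klf13 and Btg2 had no event in any library. These 8 listed genes stand among 12603 genes with a level in the whole series.

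The libraries came from DN3 thymocytes, early T cell precursors that lack lineage markers, CD4, CD8 and CD44 and carry CD25. There were 3 libraries from Hspa9 cKO mice and 3 from WT mice, all 5 weeks old and untreated. Hspa9 encodes GRP75, the mitochondrial HSP70 chaperone whose role in early thymocytes the study addressed, and cKO stands for a conditional knockout. The Cre driver, and whether each library came from a separate animal, are not stated, so p-values measure only how these libraries vary, which may be partly technical.

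KLF proteins are zinc-finger transcription factors that bind GC-rich and CACCC sequences. In T cells, KLF2 drives genes for migration and holds cells at rest, and KLF4 and KLF6 restrain cell division. FOXO proteins enter the nucleus when PI3K and AKT signalling is low and then drive genes for arrest, survival and homing; AKT phosphorylation returns them to the cytoplasm on 14-3-3 proteins. FOXP1 is a repressor needed for the quiescence of naive T cells. BTG proteins recruit the CCR4-NOT deadenylase, which shortens poly(A) tails and so speeds messenger RNA decay. DN3 cells that pass the pre-T cell receptor checkpoint leave rest and divide rapidly.

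Promoters are shown for the 3 genes that passed the test, Klf4, Klf6 and Klf2, and for Btg1, the only one of the 10 with a FOXO motif in its promoter. Each stretch runs from 250 to 31 bases before the RefSeq start (GRCm38.p6), 5′ to 3′ on the gene's own strand. Capitals mark GGGCGG (bound by SP and KLF factors), TGACG (the core of the cAMP response element) and GTAAACA (the FOXO motif), on either strand. The stretches are Klf4 at chr4:55532506-55532725 (minus strand), Klf6 at chr13:5861239-5861458 (plus), Klf2 at chr8:72318812-72319031 (plus) and Btg1 at chr10:96616751-96616970 (plus).
Klf4: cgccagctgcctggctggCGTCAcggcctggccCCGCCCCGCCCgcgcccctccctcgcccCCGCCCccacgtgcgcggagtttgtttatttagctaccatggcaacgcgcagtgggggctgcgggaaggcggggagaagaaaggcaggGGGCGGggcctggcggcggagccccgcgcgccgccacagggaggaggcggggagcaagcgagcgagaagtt
Klf6: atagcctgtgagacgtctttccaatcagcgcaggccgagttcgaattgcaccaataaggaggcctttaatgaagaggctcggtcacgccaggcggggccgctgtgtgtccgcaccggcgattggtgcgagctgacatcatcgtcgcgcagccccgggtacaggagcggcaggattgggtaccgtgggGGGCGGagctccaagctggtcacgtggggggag
Klf2: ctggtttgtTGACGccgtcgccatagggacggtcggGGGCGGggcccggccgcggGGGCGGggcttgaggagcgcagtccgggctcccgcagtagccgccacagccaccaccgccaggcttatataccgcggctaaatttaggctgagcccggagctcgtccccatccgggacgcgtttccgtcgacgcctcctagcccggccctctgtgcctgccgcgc
Btg1: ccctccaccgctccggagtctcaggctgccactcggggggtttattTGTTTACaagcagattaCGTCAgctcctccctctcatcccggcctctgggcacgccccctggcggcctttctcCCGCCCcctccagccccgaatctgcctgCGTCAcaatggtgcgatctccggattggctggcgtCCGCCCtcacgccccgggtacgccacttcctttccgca

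In windows that start 250 bases before the RefSeq start and also take in the first 50 bases of the gene, GGGCGG occurred 4 times in Klf4, 2 times in Klf2, 2 times in Btg1 and 1 time in Klf6. All 10 genes held it in at least 1 of their 12 windows (Foxp1 has 3), against 35.7% of 32851 mouse promoters. The core TGACG was present for 8 of the 10 genes, Klf6 and Foxo1 being without it, against 20.8% of all promoters. The full element TGACGTCA, which contains the core on both strands, occurred only for Btg2, against 1.79% of all promoters. GTAAACA was found for Btg1 alone, against 3.65% overall. CACCC was present for 4 genes, against 57.5% overall. Neither the AP-1 motif TGANTCA, held by 7.81% of all promoters, nor the CArG box of serum response factor, held by 1.63%, matched in any of the 12 windows. These matches are descriptions of the letters and not binding sites.

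Across all genes, 1251 of 9462 tested (13.2%) passed an adjusted p of 0.05 by limma on log2(FPKM + 1) with Benjamini-Hochberg adjustment, 740 higher (7.82%) and 511 lower (5.4%) in Hspa9 cKO cells. That split depended on scaling: with trimmed-mean factors it was 595 higher and 666 lower, and with median ratios 602 higher and 645 lower. Start events summed to 248014 to 252474 FPKM in Hspa9 cKO libraries and 256513 to 272918 FPKM in WT libraries. The read depth is unknown, since the tables hold no counts. The summed level of Hspa9 was 117, 124 and 110 FPKM in Hspa9 cKO libraries and 105, 121 and 122 FPKM in WT libraries. Transcripts that include a block of 3 adjacent internal Hspa9 exons were at 24.9, 16.8 and 25.2 FPKM in Hspa9 cKO libraries and 105, 109 and 105 FPKM in WT libraries, and those that skip the block were at 76.9, 89.4 and 68.9 FPKM in Hspa9 cKO libraries and 0, 12.3 and 17.0 FPKM in WT libraries. The included block was lower and the skipped block higher in every Hspa9 cKO library, while the summed level did not pass the test (limma with Benjamini-Hochberg adjusted p = 0.953). All 14 DN3 markers were listed.

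Of the 8 listed genes, Klf4 and Klf6 were lower and Klf2 was higher in Hspa9 cKO cells, and Klf3, Foxo1, Foxo3, Foxp1 and Btg1 did not pass the test. Thus 2 of 8 were lower, against 5.4% of all genes, and 1 of 8 was higher, against 7.82%. The median log2 change of the 8 genes was 0.03, beside 0.06 over all genes tested. The groups did not overlap for 4 of the 8 (Klf2, Klf4, Klf6 and Btg1), against 38.6% of all genes. In these bulk samples, fewer cells of a type and less RNA per cell cannot be told apart.

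**Figure D1:**
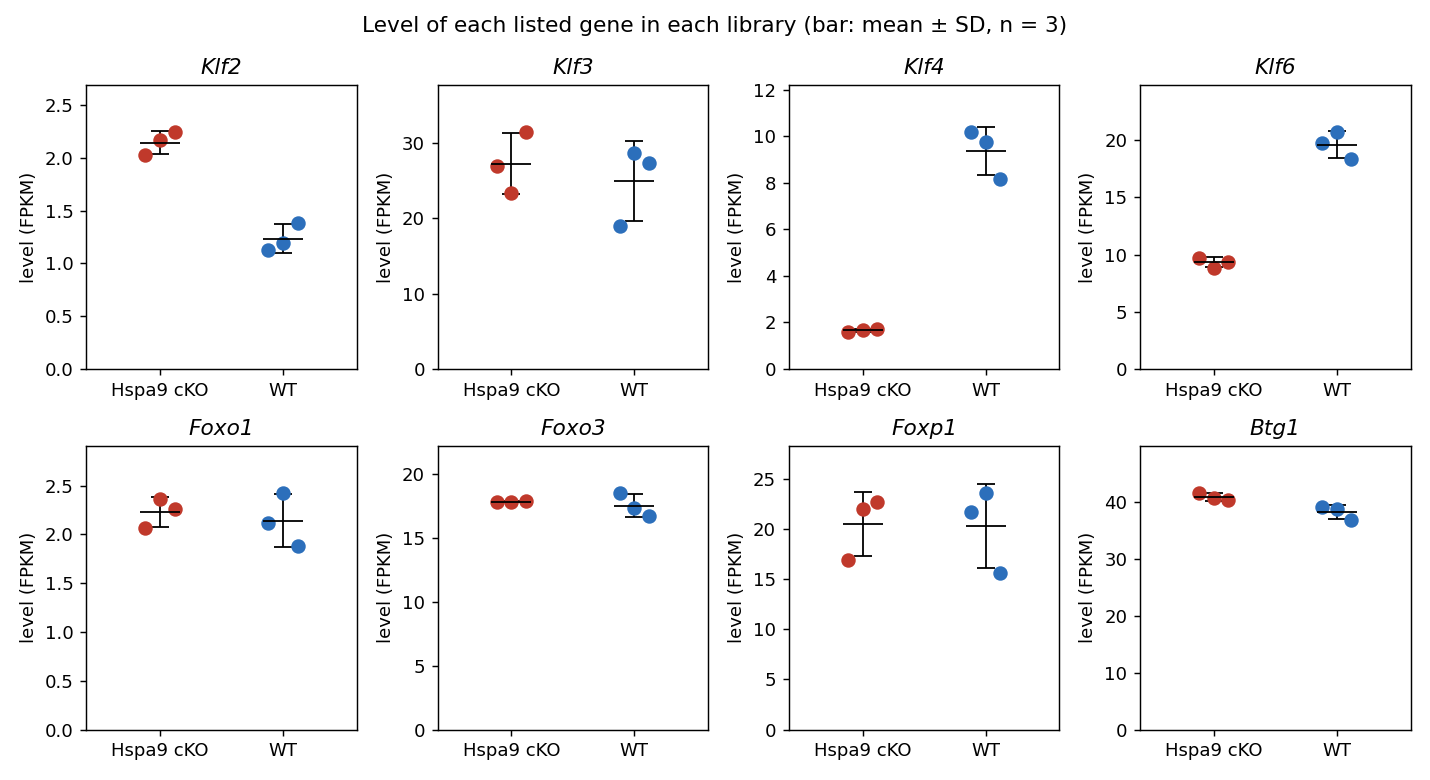
Level of each listed gene in FPKM (vertical axes, each from 0) in the 3 Hspa9 cKO libraries, left, and the 3 WT libraries, right; points are libraries and bars are means with SD. Klf4 and Klf6 lie lower in every Hspa9 cKO library than in any WT library, Klf2 lies higher, and the points of Klf3, Foxo1, Foxo3 and Foxp1 overlap between the groups.

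Klf4 (ENSMUSG00000003032, chromosome 4, 55527143 to 55532466, minus strand, mm10), a factor that restrains T cell division, had 1.59, 1.69 and 1.72 FPKM in Hspa9 cKO libraries and 10.2, 9.76 and 8.19 FPKM in WT libraries. Every Hspa9 cKO library was below every WT library, and the Hspa9 cKO values lay close together. The means were 1.67 ± 0.0682 FPKM in Hspa9 cKO cells and 9.38 ± 1.05 FPKM in WT cells (SD, n = 3 each), a ratio of 0.178. Klf4 fell by 1.96 on the log2(FPKM + 1) scale, where the added 1 shrinks differences at low levels (SE 0.11, 95% interval -2.23 to -1.68, limma with Benjamini-Hochberg adjusted p = 0.00115). It was called lower under 15 of 15 alternatives, with changes of -2.42 to -1.90. Its start and end levels were equal within 0.001 FPKM in 6 of 6 libraries, so the end-event alternative could give no other change. Its level stood at the 5.71 percentile of tested genes in Hspa9 cKO cells and at the 49.1 percentile in WT cells.

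Klf6 (ENSMUSG00000000078, chromosome 13, 5861482 to 5870394, plus strand), linked to growth arrest, had 9.73, 8.86 and 9.38 FPKM in Hspa9 cKO libraries and 19.8, 20.7 and 18.4 FPKM in WT libraries. The groups did not overlap, and the lowest WT library was well above the highest Hspa9 cKO one. The means were 9.32 ± 0.435 FPKM in Hspa9 cKO cells and 19.6 ± 1.15 FPKM in WT cells (SD, n = 3 each), a ratio of 0.475. Klf6 changed by -0.997 on the log2 scale (SE 0.08, 95% interval -1.20 to -0.80, limma with Benjamini-Hochberg adjusted p = 0.00257), and 15 of 15 alternatives kept the call. Klf6 has a single listed start and a single listed end, and their values were equal within 0.001 FPKM in 6 of 6 libraries. The end-event alternative could therefore give no other change for Klf6.

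Klf2 (ENSMUSG00000055148, chromosome 8, 72319033 to 72321656, plus strand), which controls T cell migration and rest, had 2.02, 2.17 and 2.24 FPKM in Hspa9 cKO libraries and 1.12, 1.19 and 1.39 FPKM in WT libraries. Every Hspa9 cKO library was above every WT library, at levels low in both groups. The means were 2.14 ± 0.111 FPKM in Hspa9 cKO cells and 1.23 ± 0.136 FPKM in WT cells (SD, n = 3 each), a ratio of 1.74. The log2 change of 0.49 (SE 0.12, 95% interval 0.21 to 0.78) passed the threshold narrowly, with an adjusted p of 0.0453 by limma with Benjamini-Hochberg adjustment. The call was kept in 3 of 14 alternatives and lost without any one of the 6 libraries, where the adjusted p was 0.0682 to 0.134. Its transcript ends gave a change of 0.23, since in Hspa9 cKO replicate 2 the end event stood at 0.829 FPKM against 2.17 FPKM for the start. Hspa9 cKO replicate 1 also listed a second start event, of 0.565 FPKM, that no other library had. That event begins at the same base, 72319033, as the event in all libraries, and only the end of the first exon differs.

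Klf3 (ENSMUSG00000029178, chromosome 5, 64803388 to 64832901, plus strand), a repressor that acts through CtBP, had 26.9, 23.4 and 31.4 FPKM in Hspa9 cKO libraries and 18.9, 28.6 and 27.3 FPKM in WT libraries. The groups overlapped, with WT replicate 1 the lowest of the 6. The means were 27.2 ± 4.01 FPKM in Hspa9 cKO cells and 24.9 ± 5.26 FPKM in WT cells (SD, n = 3 each). The log2 change was 0.13 (SE 0.19, 95% interval -0.32 to 0.59, limma with Benjamini-Hochberg adjusted p = 0.673), an interval that leaves room for a change in either direction.

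Foxo1 (ENSMUSG00000044167, chromosome 3, 52268336 to 52353221, plus strand), which sustains Il7r and homing genes in T cells, had 2.07, 2.37 and 2.26 FPKM in Hspa9 cKO libraries and 2.12, 2.42 and 1.88 FPKM in WT libraries. The ranges overlapped almost fully, with means of 2.23 ± 0.153 FPKM in Hspa9 cKO cells and 2.14 ± 0.273 FPKM in WT cells (SD, n = 3 each). The log2 change was 0.04 (SE 0.12, 95% interval -0.25 to 0.34, limma with Benjamini-Hochberg adjusted p = 0.840).

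Foxo3 (ENSMUSG00000048756, chromosome 10, 42181841 to 42276755, minus strand), a driver of arrest and apoptosis genes, had 17.9, 17.8 and 17.9 FPKM in Hspa9 cKO libraries and 18.5, 17.4 and 16.7 FPKM in WT libraries. The Hspa9 cKO values fell inside the WT range. With means of 17.9 ± 0.0369 FPKM in Hspa9 cKO cells and 17.6 ± 0.915 FPKM in WT cells (SD, n = 3 each), the log2 change was 0.02 (SE 0.07, 95% interval -0.15 to 0.20, limma with Benjamini-Hochberg adjusted p = 0.852). Its only listed end is an alternative last exon, at 0.000486 to 0.0254 FPKM in Hspa9 cKO libraries and 0.0102 to 0.708 FPKM in WT libraries, so its start alone carries the level.

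Foxp1 (ENSMUSG00000030067, chromosome 6, 98925338 to 99522721, minus strand) had 16.9, 21.96 and 22.6 FPKM in Hspa9 cKO libraries and 21.7, 23.6 and 15.6 FPKM in WT libraries. Both groups held a low library, and they overlapped, with means of 20.5 ± 3.16 FPKM in Hspa9 cKO cells and 20.3 ± 4.16 FPKM in WT cells (SD, n = 3 each). The log2 change was 0.02 (SE 0.19, 95% interval -0.43 to 0.47, limma with Benjamini-Hochberg adjusted p = 0.955). Its events are filed under the ID of Eif4e3, an adjacent gene. Its 9 start events were assigned to Foxp1 by the splice edge that each names.

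Btg1 (ENSMUSG00000036478, chromosome 10, 96617006 to 96622809, plus strand), a cofactor of the deadenylase, had 41.6, 40.8 and 40.3 FPKM in Hspa9 cKO libraries and 39.1, 38.7 and 36.9 FPKM in WT libraries. The groups did not overlap, yet the gap between them was small (means 40.9 ± 0.659 FPKM in Hspa9 cKO cells and 38.3 ± 1.19 FPKM in WT cells, SD, n = 3 each). The log2 change of 0.09 (SE 0.06, 95% interval -0.06 to 0.25) did not pass the test, with an adjusted p of 0.364 by limma with Benjamini-Hochberg adjustment. The exact permutation p, two-sided, was 0.1, which is also the lowest value possible with 3 libraries a group.

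Klf13 (chromosome 7, 63886351 to 63938915, minus strand) and Btg2 (chromosome 1, 134075170 to 134079120, minus strand) were not listed, which says nothing about their expression: Gapdh, used by every cell, was listed in 1 library alone, at 0.137 FPKM. Gm27252, an annotated gene on the opposite strand inside Klf13 and named after its values were seen, had 3.33, 2.23 and 3.58 FPKM in Hspa9 cKO libraries and 1.13, 0.967 and 1.14 FPKM in WT libraries. It was higher in all 3 Hspa9 cKO libraries (log2 change 0.95, SE 0.17, limma with Benjamini-Hochberg adjusted p = 0.02004), but the call was lost without any 1 library other than Hspa9 cKO replicate 2. No source says whether the counting used strand, so reads of Klf13 and Gm27252 cannot be told apart.

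**Figure D2:**
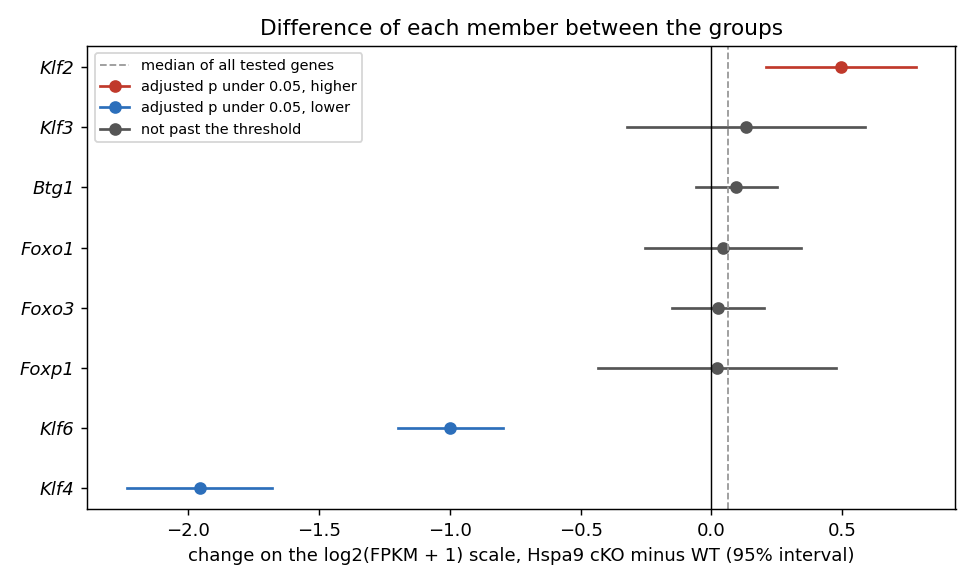
Change of each listed gene on the log2(FPKM + 1) scale (horizontal axis, Hspa9 cKO minus WT) with its 95% interval from limma. Klf4 at -1.96 and Klf6 at -0.997 lie left of 0, Klf2 at 0.49 lies right of it, and the intervals of Klf3, Foxo1, Foxo3, Foxp1 and Btg1 include 0.

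FPKM is scaled by length, and the summed start levels were ordered between genes on that basis. This order depends on which events are listed and summed: Klf3 in WT replicate 1 was at 18.9 FPKM by starts and 6.57 FPKM by its end. In Hspa9 cKO cells the order was Btg1, Klf3, Foxp1, Foxo3, Klf6, Foxo1, Klf2 and Klf4, with neighbours overlapping only for Foxp1 and Foxo3 and for Foxo1 and Klf2. In WT cells it was Btg1, Klf3, Foxp1, Klf6, Foxo3, Klf4, Foxo1 and Klf2, and Klf3 with Foxp1, Foxp1 with Klf6 and Klf6 with Foxo3 overlapped. Klf4 was thus the lowest of the 8 in Hspa9 cKO cells, while in WT cells it stood above Foxo1 and Klf2. Btg1 was the highest in both groups, at the 88.6 percentile of tested genes in Hspa9 cKO cells and the 87.2 percentile in WT cells.

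**Figure D3:**
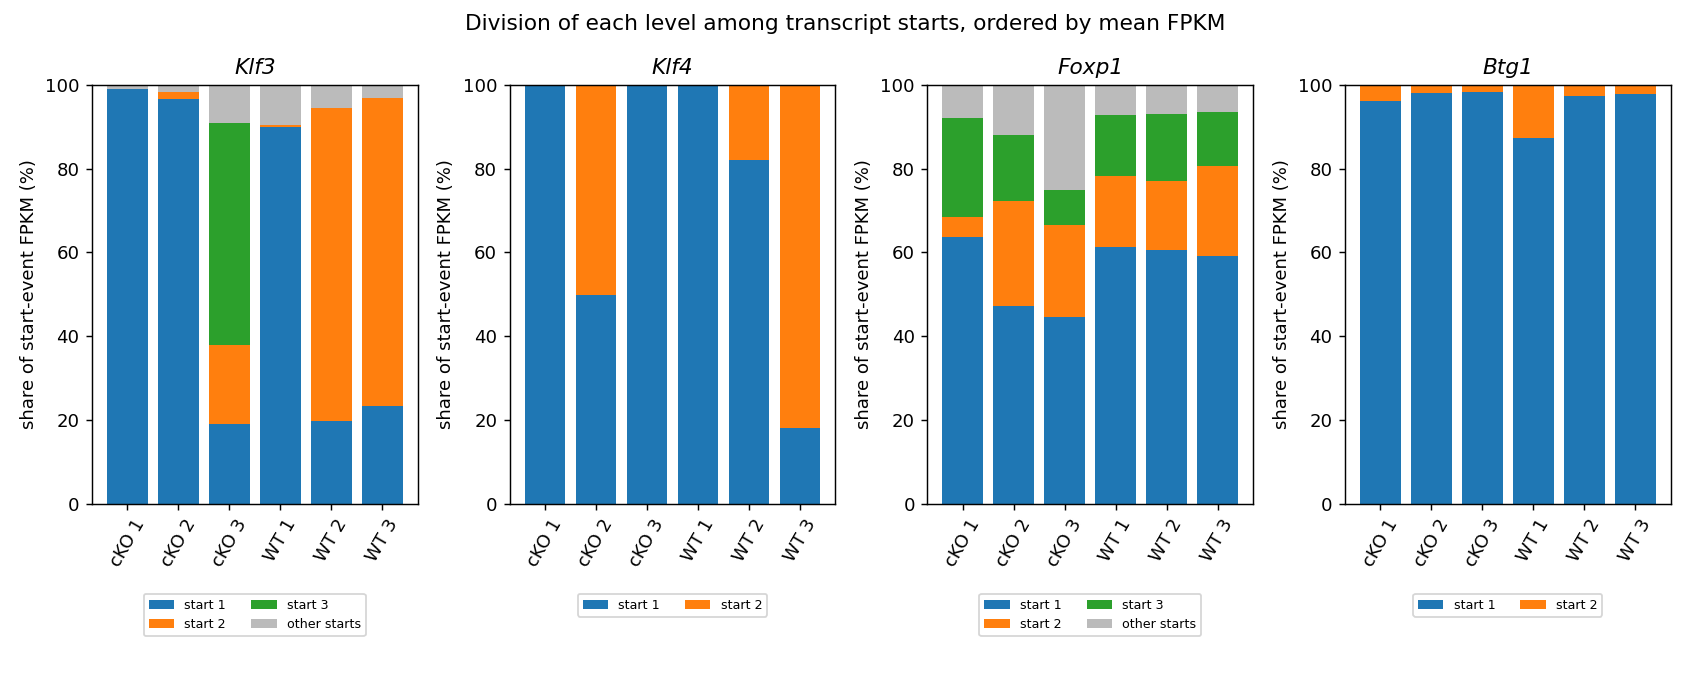
Share of each gene's start-event FPKM (vertical axis, percent) that fell on each start event, for Klf3, Klf4, Foxp1 and Btg1 in the 3 Hspa9 cKO libraries and the 3 WT libraries. The leading start event of Klf3 holds 19.1% to 99.0% in Hspa9 cKO libraries and 19.8% to 90.0% in WT libraries, while that of Btg1 stays above 87% throughout. Both Btg1 events begin at the same base.

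Several start events, each a first exon, were listed for Klf3, Klf4, Foxp1 and Btg1, and the 2 of Klf2 are given above. Some events of a gene begin at the same base and differ in where that exon ends. The leading start of Klf3, the first exon of the principal isoform (chromosome 5, 64803388 to 64803791), held 99.0%, 96.7% and 19.1% of its level in Hspa9 cKO libraries and 90.0%, 19.8% and 23.3% in WT libraries. This division varied as much within each group as between them (exact two-sided permutation p = 0.4). A second Klf3 start (64812339 to 64812503) was at 0.00777, 0.366 and 5.89 FPKM in Hspa9 cKO libraries and 0.0604, 21.4 and 20.1 FPKM in WT libraries. For Klf4, the leading start (chromosome 4, 55531867 to 55532453) held 100%, 49.9% and 100% in Hspa9 cKO libraries and 100%, 82.1% and 18.0% in WT libraries (exact two-sided permutation p = 0.7). The Klf4 sum was stable where its division between starts was not. The leading Foxp1 start (chromosome 6, 99162839 to 99163018) held 63.8%, 47.3% and 44.5% in Hspa9 cKO libraries and 61.2%, 60.7% and 59.2% in WT libraries (exact two-sided permutation p = 0.4). The 2 start events of Btg1 both begin at base 96617006 of chromosome 10, so their shares divide forms of the first exon. The event ending at 96617472 held 96.2%, 98.2% and 98.4% in Hspa9 cKO libraries. In WT libraries it held 87.4%, 97.4% and 97.8% (exact two-sided permutation p = 0.5). No share separated the groups.

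Skipped-exon events were listed for Klf3, Klf6 and Foxp1, and a retained intron for Klf4. Each percentage is the inclusion event's share of the FPKM of that event and its paired exclusion event, which may miss part of the gene's signal. For a non-coding Klf3 exon of 83 bases (chromosome 5, 64818625 to 64818707), the share was 0%, 0% and 1.04% in Hspa9 cKO libraries. In WT libraries it was 9.69%, 3.97% and 1.33%. The WT replicate 1 pair stood at 0.642 FPKM included and 5.99 FPKM skipped, where the Klf3 level was 18.9 FPKM. The shares did not overlap between the groups (exact two-sided permutation p = 0.1, the smallest possible), but Hspa9 cKO replicate 3 and WT replicate 3 lay close together. For a coding Klf3 exon of 96 bases (64816735 to 64816830), the share of its event pair was 100% in all 3 Hspa9 cKO libraries. In WT libraries it was 38.8%, 100% and 100%. In Hspa9 cKO replicates 1 and 2 the included form stood at 26.6 and 22.6 FPKM, near the Klf3 levels of 26.9 and 23.4 FPKM. In Hspa9 cKO replicate 3 and WT replicate 2 it stood at 5.68 and 4.57 FPKM, against Klf3 levels of 31.4 and 28.6 FPKM. In WT replicate 3 it was also far below the Klf3 level, so these shares cover a small part of Klf3 signal. WT replicate 1, the library with the skipped form, also had only 6.57 FPKM on the Klf3 end, against 26.3 and 25.5 FPKM in the other WT libraries. In Hspa9 cKO libraries the Klf3 end stood at 26.6, 22.7 and 23.5 FPKM. An intron of Klf4 (55530983 to 55531630) was listed as retained in WT replicate 1 alone, at 12.4%. A coding Klf6 exon of 68 bases (5863558 to 5863625) was included in 0%, 1.11% and 1.14% of signal in Hspa9 cKO libraries and 1.86%, 0.724% and 0% in WT libraries, so nearly all Klf6 signal skipped it in both groups.

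The genes nearest to each called factor were found by the Euclidean distance between log2 levels, each set against its WT mean, over the 6 libraries and 6784 other genes with a mean of at least 5 FPKM. Nearest to Klf4 were Cdc26 (distance 0.592), a subunit of the anaphase-promoting complex, Trib1 (0.642), a pseudokinase, and Tnfaip3 (0.643), an inhibitor of NF-kB signalling. These distances are large beside those of Klf6, whose nearest genes were Top2a (0.145), the topoisomerase of dividing cells, Tpx2 (0.165), a spindle factor, and E2f2 (0.170), a cell cycle transcription factor. Nearest to Klf2 were Pnrc2 (0.0755), which takes part in mRNA decay, Sel1l (0.103), of endoplasmic reticulum protein disposal, and Arhgap45 (0.105). The choice by distance itself makes these genes share the change of their factor. Those of Klf4 and Klf6 kept their calls with each library left out, and each of those of Klf2 lost its call without Hspa9 cKO replicate 3, among other libraries.

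Other members of the same families were also tested, against 13.2% called of all genes. Of 12 further KLF genes 4 were tested, and Klf11 alone was called, lower, at 3.88, 4.03 and 3.59 FPKM in Hspa9 cKO libraries and 6.65, 7.96 and 6.10 FPKM in WT libraries. Its change of -0.70 (SE 0.12, limma with Benjamini-Hochberg adjusted p = 0.0185) was no longer called without any 1 Hspa9 cKO library or without WT replicate 1. Of the FOXO and FOXP genes, Foxo4 and Foxp4 were tested by limma and neither was called, nor had an unadjusted p under 0.05 (0 of 2). Of 3 tested BTG and TOB genes, only Tob1, an antiproliferative partner of the same deadenylase, was lower, at 2.24, 2.72 and 2.74 FPKM in Hspa9 cKO libraries and 4.99, 4.23 and 5.10 FPKM in WT libraries. Its change of -0.69 (SE 0.12, limma with Benjamini-Hochberg adjusted p = 0.0192) was lost without any 1 Hspa9 cKO library, WT replicate 1 or WT replicate 3. None of 14 tested CCR4-NOT, PAN and poly(A)-binding genes was called by limma (median log2 change -0.08), and 1 of them, lower, had an unadjusted p under 0.05.

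Upstream of the forkhead factors, 1 of 19 tested PI3K and AKT genes was higher, against 7.82% of all genes. A further 2 were lower, against 5.4% of all genes (median log2 change -0.10). Pik3cd, the leukocyte PI3K catalytic subunit, changed by 0.38 (adjusted p = 0.0276), Ywhae, a 14-3-3 protein, by -0.31 (adjusted p = 0.0224) and Sgk1, a kinase that phosphorylates FOXO proteins, by -0.67 (adjusted p = 0.0441), all by limma with Benjamini-Hochberg adjustment. None of these 3 held in every fit with 1 library left out: Sgk1 was lost without any of the 6, Ywhae without any Hspa9 cKO library or WT replicate 1, and Pik3cd without any Hspa9 cKO library, WT replicate 1 or WT replicate 3. Of 8 tested ERK5 and MEF2 genes upstream of KLF2, 1 was higher, against 7.82% of all genes. This was Hdac4, a class IIa deacetylase that binds MEF2, higher by 1.57 (limma with Benjamini-Hochberg adjusted p = 0.0183). Its call was lost without Hspa9 cKO replicate 1 or 3 or WT replicate 2 or 3. By limma 0 of the 8 were lower, and 1 was at an unadjusted p under 0.05.

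Genes known to be controlled by KLF2 or FOXO factors are set against the same 13.2% of all genes called. Of 11 tested FOXO targets of arrest and metabolism, Txnip, an inhibitor of glucose uptake, was higher at 53.8, 49.1 and 52.0 FPKM in Hspa9 cKO libraries and 31.6, 29.1 and 31.7 FPKM in WT libraries. It changed by 0.73 (SE 0.07, limma with Benjamini-Hochberg adjusted p = 0.00480) and kept its call in 14 of 14 alternatives. Cited2, a transcriptional coregulator, was lower, by 0.83 on the log2 scale (limma with Benjamini-Hochberg adjusted p = 0.0262), and was lost without any Hspa9 cKO library, WT replicate 1 or WT replicate 2. The other 9 were not called, and the median of the 11 was 0.11. Of 7 tested trafficking and homeostasis genes only Dusp6, a phosphatase of ERK, passed, lower by 0.67 on the log2 scale (limma with Benjamini-Hochberg adjusted p = 0.0116), and not without Hspa9 cKO replicate 3. S1pr1, a well known KLF2 target, was not listed.

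Among 14 tested other quiescence genes, 3 were higher, against 7.82% of all genes, and 1 was lower, against 5.4% (median log2 change 0.19). Slfn2, a guardian of T cell quiescence, had 6.53, 6.52 and 6.29 FPKM in Hspa9 cKO libraries and 2.89, 2.95 and 3.45 FPKM in WT libraries, a change of 0.86 (SE 0.10, limma with Benjamini-Hochberg adjusted p = 0.00687). Cdkn2c, the CDK inhibitor p18, had 2.76, 2.64 and 2.86 FPKM in Hspa9 cKO libraries and 5.77, 5.48 and 5.15 FPKM in WT libraries, a change of -0.79 (SE 0.10, limma with Benjamini-Hochberg adjusted p = 0.00769). Peli1, a ubiquitin ligase, changed by 0.55 (limma with Benjamini-Hochberg adjusted p = 0.0192), and was lost without Hspa9 cKO replicate 1 or 2 or WT replicate 1 or 3. Elf4, a transcription factor named after its values were seen, changed by 0.78 (limma with Benjamini-Hochberg adjusted p = 0.0345), a call lost without any 1 library other than WT replicate 1.

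**Figure D4:**
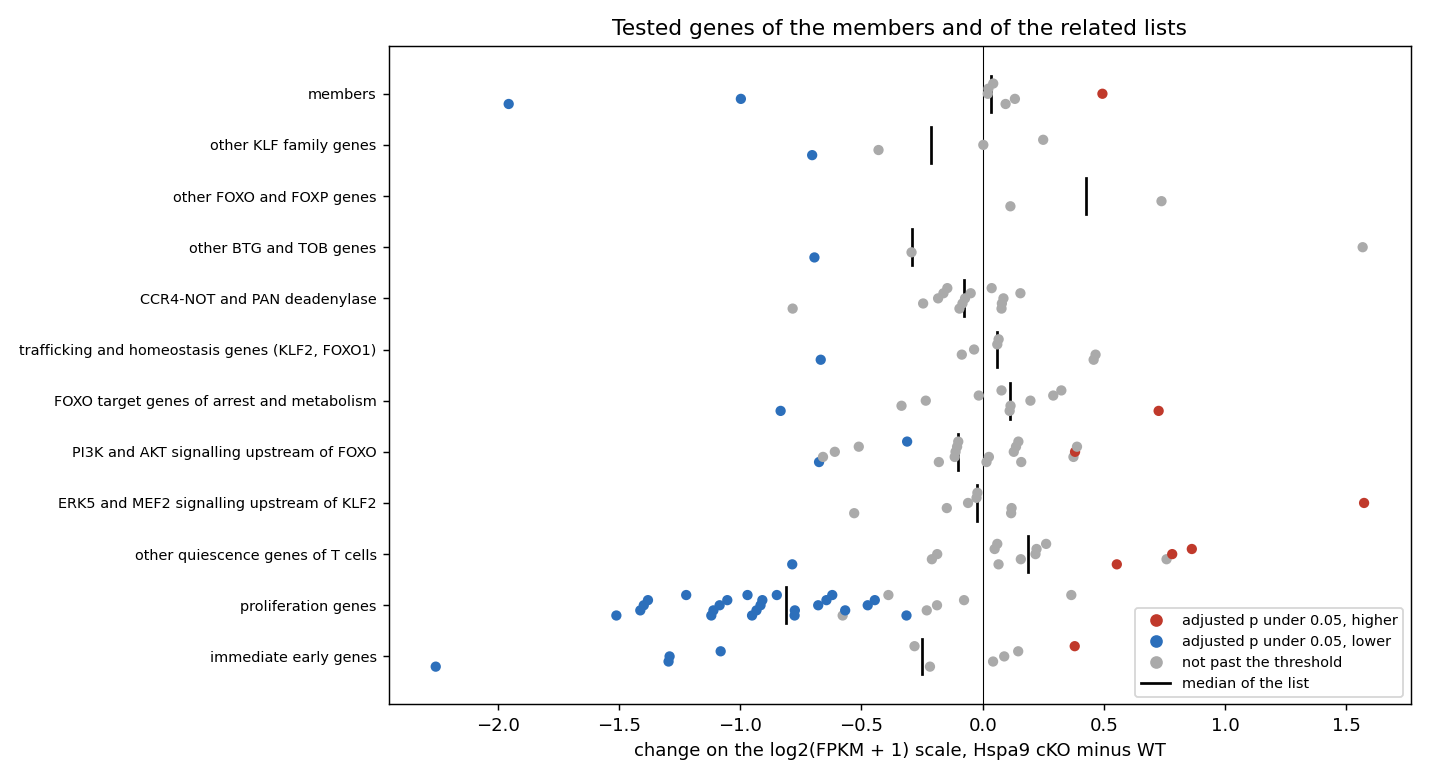
Change of every tested gene (horizontal axis, log2(FPKM + 1), Hspa9 cKO minus WT) of the 8 listed factors and of each related list, with black bars at the list medians. The proliferation genes centre on -0.81, and the 8 factors on 0.03.

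Klf4 and Klf6 were lower in the same libraries in which proliferation and immediate early genes were lower, and the part of either list in their change was not tested. Of 30 tested proliferation genes 24 were lower and 0 higher by limma, with 1 higher at an unadjusted p under 0.05 (median log2 change -0.81), among them Ube2c by 1.41 and Plk1 by 1.22 on the log2 scale (limma with Benjamini-Hochberg adjusted p = 0.000716 and 0.00115). Of 10 tested immediate early genes, also induced by cell handling, 4 were lower and 1 was higher (median -0.25). Over all genes tested, 5.4% were lower and 7.82% were higher. Fosb had 2.91, 3.86 and 4.01 FPKM in Hspa9 cKO libraries and 21.8, 18.6 and 22.3 FPKM in WT libraries, and Nr4a1 changed by -1.30 (limma with Benjamini-Hochberg adjusted p = 0.00177). Fos and Dusp1, named after their values were seen, were the other 2 lower genes, at -1.08 and -1.29, and Dusp1 was lost without WT replicate 1 or 3. Csrnp1 was higher by 0.38, a call lost without any Hspa9 cKO library, WT replicate 1 or WT replicate 2, and Egr1 was at 10.99, 8.95 and 9.52 FPKM in Hspa9 cKO libraries and 9.67, 8.88 and 7.78 FPKM in WT libraries.

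Markers of stage and of other cells also moved, and their part in the changes of Klf4, Klf6 and Klf2 was not tested. The 14 DN3 markers summed to 2753 to 3313 FPKM in Hspa9 cKO libraries and 2298 to 2641 FPKM in WT libraries. Of the 14, 7 were higher, against 7.82% of all genes tested, and 1, Tcf7, was lower, against 5.4%. The same shares of all genes stand beside the calls in the other marker lists. Of 8 markers of the later DN4, ISP and DP stages, Cd8b1 was among those lower, and the sums overlapped (69.9 to 88.0 FPKM in Hspa9 cKO libraries and 63.3 to 78.2 FPKM in WT libraries). The 5 listed of 6 erythroid markers summed to 37.6 to 46.1 FPKM in Hspa9 cKO libraries and 63.1 to 76.6 FPKM in WT libraries, and Hba-a2 and Hbb-bt were lower. The 5 listed of 10 markers of mature, gamma-delta T and NK cells summed to 150.5 to 161.8 FPKM in Hspa9 cKO libraries and 175.1 to 202.9 FPKM in WT libraries, and Gzma was lower. Most of that sum was Gzma alone, with means of 145 FPKM in Hspa9 cKO cells and 177 FPKM in WT cells. The 4 listed of 10 stromal markers summed to 64.6 to 71.5 FPKM in Hspa9 cKO libraries and 51.0 to 52.6 FPKM in WT libraries, with Epcam higher, while Krt5, Krt8, Foxn1 and Psmb11 were not listed. Nearly all of that sum came from Epcam (means 39.2 FPKM in Hspa9 cKO cells and 27.9 FPKM in WT cells) and Pecam1 (25.6 and 21.4 FPKM). Sums of B cell markers (3 of 8 listed, with Cd79a, Ms4a1, Pax5 and Ebf1 among those not listed), myeloid markers (7 of 10) and DN1 and DN2 markers (7 of 8) overlapped between the groups, with Cd79b called higher among the B cell markers. Of Tcf7, Cd8b1, Hba-a2, Hbb-bt, Gzma, Epcam and Cd79b, all but Cd8b1 lost their call in at least 1 fit with a library left out. The 7 higher DN3 markers are not in that count. They were Il2ra, Ptcra, Rag2, Notch3, Dtx1, Cd3g and Erg (limma with Benjamini-Hochberg adjusted p of 0.000634 to 0.0272).

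**Figure D5:**
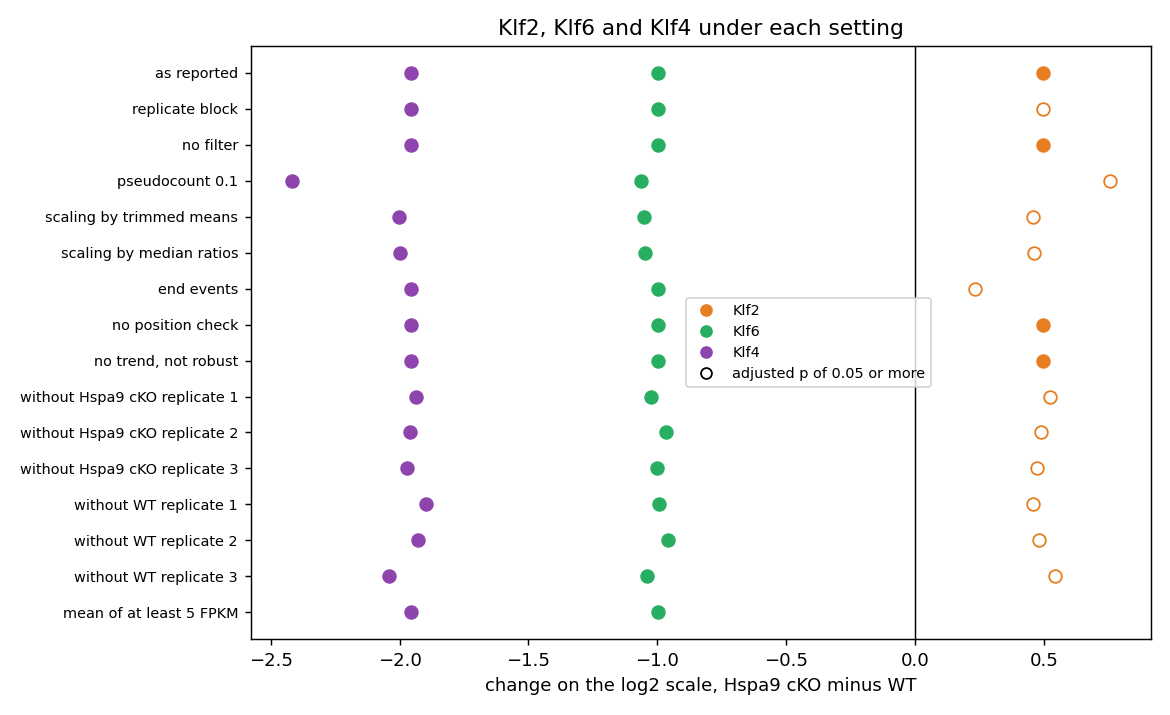
Change of Klf2, Klf6 and Klf4 (horizontal axis, log2 scale, Hspa9 cKO minus WT) under each processing setting (rows); filled circles have an adjusted p under 0.05 by limma and open circles do not. Klf4 stays between -2.42 and -1.90 and Klf6 between -1.06 and -0.96, all filled, while most circles of Klf2 are open.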

How the data were processed

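Libraries were made from random-primed cDNA of messenger RNA, enriched by poly(A) selection or by ribosomal RNA removal (both are named), per the labels' protocols. The submitters' processing notes name cutadapt 1.9.1 and the build mm10. No aligner, assembler or annotation is given in the sources used here. The authors deposited an FPKM value for each transcript event, per the file headers, and this estimate depends on how reads were divided among isoforms. An unlisted event was set to 0, which can be a failed estimate.

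Repeated events were dropped. Events were assigned by gene ID where they overlap that GENCODE M21 gene (90.0% of start FPKM), otherwise by a splice edge matching 1 gene (8.30%), and 1.68% were left out. Start events were summed per gene, or ends where no start exists. Genes at 1 FPKM or more in 3 libraries were tested with limma 3.58.1 (R 4.3.3; trended, robust) on log2(FPKM + 1), two-sided, with Benjamini-Hochberg adjustment and a threshold of 0.05. The fit was tested on simulated data with known changes on the log2 scale. It recovered 25.3% of changes of 0.5, 63.5% of changes of 1 and 86.2% of changes of 2, with 6 false calls. The changed genes numbered 79, 63 and 58 of 9462, a smaller share than the 13.2% called in the data. None was at a mean level as low as that of Klf2, so these rates may not hold for the real comparison. A gene that was not called can therefore still have changed. The genes and lists were chosen with earlier results of these data known, so no list was tested. Named genes are the 10 factors, in each list the 2 called genes of lowest adjusted p per direction, and 3 nearest genes per called factor. Some genes of the lists are not reported here. The alternatives were a replicate block, other filters, a pseudocount of 0.1, 2 rescalings, end events, no position check, a plain fit and each library left out.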

Additional observations from a re-analysis of the deposited data

How the results depend on the processing

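Klf4 and Klf6 were called lower under every alternative run, and the count of factors called lower stayed at 2. The count called higher was 0, in place of 1, with the replicate block, a mean of at least 5 FPKM (which removes Klf2), a pseudocount of 0.1, either rescaling, end events and in each fit with 1 library left out (0 to 0); the cause was not tested. Klf2 changed by 0.75 with the pseudocount of 0.1 (adjusted p = 0.0543), 0.46 with trimmed means (0.0560) and 0.46 with median ratios (0.0553). Deviations of same-numbered libraries correlated at 0.006162, -0.006993 and -0.04554, which showed no pairing by replicate number. The labels state no pairing, and these correlations cannot settle whether there was one. With the replicate block 118 genes were higher and 59 lower, Klf2 was not called (adjusted p = 0.122) and Klf4 and Klf6 were. Slfn2, Cdkn2c and Cd8b1, which kept their calls with each library left out, were not called with the block (adjusted p = 0.0601, 0.0626 and 0.0540). Leaving out 1 library gave 201 to 488 genes higher and 182 to 316 lower. Among factors that were not called, the sign turned for Klf3 without WT replicate 1 (-0.047 to 0.24 over the fits with 1 library left out), for Foxo1 without WT replicate 3 (-0.017 to 0.11), for Foxo3 without WT replicate 3 (-0.0085 to 0.062) and for Foxp1 without Hspa9 cKO replicate 2, Hspa9 cKO replicate 3 or WT replicate 3 (-0.15 to 0.15). Other uncalled genes whose sign turned were Hspa9 without Hspa9 cKO replicate 2 or WT replicate 1 (-0.057 to 0.054) and Foxo4 without Hspa9 cKO replicate 3 (-0.041 to 0.22). With trimmed means Foxo3 was at -0.033, Foxp1 at -0.035 and Hspa9 at -0.049, with median ratios they were at -0.029, -0.032 and -0.045, and with starts taken by genomic span, an alternative chosen after seeing the data, Foxp1 was at -0.032. The cause of these turns was not tested. Without counts, the depth behind low genes such as Klf2 and Foxo1 is unknown.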
